A study of Mus musculus with 18 samples.

Results

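The genes described here are 9 parts of the interleukin 6 (IL-6) and interleukin 1 (IL-1) pathways in mouse liver: the receptor chains Il6ra, Il6st, Il1r1 and Il1rap, the receptor antagonist Il1rn, the transcription factors Stat3, Cebpb and Cebpd, and the feedback inhibitor Socs3. They were chosen by symbol, and all 9 were present among the 38924 gene IDs counted in males and among the 23337 gene symbols counted in females. All 9 passed the filter on low counts in every comparison. Liver RNA of 18 mice was sequenced singly, with 3 animals in each of 6 groups, and collected at 8 weeks of age from animals on a high-fat diet (45% of kcal). C57BL6J mice received low-dose penicillin (LDP) from birth (LDP males 8, 10 and 11 and LDP females 39, 52 and 54) or no antibiotic (control males 5, 6 and 7 and control females 29, 30 and 32), were weaned at week 4 and had the high-fat diet from week 6. Germ-free Swiss Webster females were colonised at week 3 with the gut microbiota of LDP mice (LDP recipients 2, 5 and 8) or of control mice (control recipients 1, 3 and 7) and received no drug themselves. Cage, litter and donor of each mouse are not given. The p-values rest on the spread between these mice only and treat them as independent. They could be too small if mice of a group shared a cage, litter or donor.

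Hepatocytes sense IL-6 through IL-6 receptor alpha, encoded by Il6ra, which recruits the shared signalling chain gp130, encoded by Il6st. Janus kinases bound to gp130 phosphorylate STAT3, which switches on acute phase genes and also Socs3, whose product binds gp130 and shuts the signal off. IL-1 binds the type 1 receptor, encoded by Il1r1, together with its accessory chain, encoded by Il1rap, and activates NF-kB; the antagonist encoded by Il1rn occupies the receptor without signalling. C/EBP beta and C/EBP delta, encoded by Cebpb and Cebpd, act with STAT3 and NF-kB on acute phase genes in the liver.

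No member passed an adjusted p of 0.05 by edgeR in any of the comparisons of LDP with control mice or of LDP with control recipients. By unadjusted p of edgeR, Il6ra, Il1r1 and Il1rn in the recipients were nearest to a difference, each lower with LDP microbiota. Their log2 changes of -0.54, -0.80 and -0.50 ranged from -0.67 to -0.27, -1.01 to -0.34 and -0.70 to -0.30 on leaving out a mouse. By DESeq2 the lowest unadjusted p in these comparisons was that of Socs3 in males (0.00357), followed by Il1r1 in the recipients (0.00384). Among males, Socs3 was lower by the most, 9.001 ± 3.43 CPM in LDP males and 14.9 ± 3.43 CPM in control males (SD, n = 3 each). CPM here are counts scaled to a common library size with TMM factors. Levels of the males, who were counted in a table of their own, were not compared with those of females, and only the changes within each sex were.

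The sequences of 3 members are shown because their promoters hold a match to a motif of the factors these pathways use. RefSeq windows from 250 bases before to 50 bases after an annotated start (GRCm38.p6) were found for 8 of the 9 members, 11 windows in all, and were searched on both strands for a STAT motif (TTCNNNGAA, which reads the same on both strands), a C/EBP motif (TTGCNNAA) and an NF-kB motif (GGG and TTTCC parted by any pair of bases). Each of the runs below holds 1 motif match, and no match overlapped another. Capitals mark the match, each run is 30 bases written 5′ to 3′, and the names give gene and motif.
Socs3, STAT: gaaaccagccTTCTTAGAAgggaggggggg
Il1r1, C/EBP: gcctggcacgtTTGCTGAAtgcttctggct
Il1rn, NF-kB: ggaaatatgaGGGTTTTTCCgcttctgaca
The Socs3 run lies on the minus strand at chr11:117969501-117969530, with the motif 154 to 146 bases before the RefSeq start. GENCODE places Socs3 at chr11:117966079-117970047, so in that annotation the motif lies inside the gene, outside its exons. The Il1r1 run lies on the plus strand at chr1:40224936-40224965, with the motif 133 to 126 bases before the start. The Il1rn run lies on the plus strand at chr2:24345310-24345339, inside an annotated exon of Il1rn, and falls into the windows of 2 neighbouring starts. The windows of Il6ra, Il6st, Stat3, Il1rap and Cebpb held none of these letters. Of all 32851 mouse windows of this length, 8.30% held the STAT motif, 10.8% the C/EBP motif and 1.63% the NF-kB motif, so a match is a description of these letters only.

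Male libraries were similar in depth, with 70336366 to 74418889 counts each. Female libraries ranged more widely, from 17937005 to 28646168 counts. The deepest was LDP recipient 8, which also had the largest share of albumin (14.4%). Albumin took 5.82 to 8.22% of counts in males and 9.87 to 14.4% in females, and the summed level of 6 hepatocyte markers was 77127 to 102397 CPM in males and 115772 to 181797 CPM in females. In bulk liver, fewer cells of a type and less RNA per cell cannot be told apart. None of those 6 markers was at 0 in all libraries. Strandedness of the libraries is not stated, so reads of genes on the opposite strand cannot be separated where exons overlap. Such overlaps are those of Stat5a with Stat3, Tmem189 with Cebpb and Spidr with Cebpd. The antisense genes Gm42809 and Gm20319 overlap Il6ra and Il1rap in the same way.

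Per length, the receptor genes Il1r1 and Il6ra and the factor gene Cebpb stood highest and the antagonist gene lowest. Per kilobase of the gene length given for males, Il1r1 stood at 28.7 ± 3.33 CPM in LDP males and 35.2 ± 6.38 CPM in control males, and Cebpb at 30.9 ± 5.32 and 30.3 ± 5.15 CPM in the same order. Il6ra, at 29.2 ± 3.66 CPM per kb in LDP males and 29.9 ± 2.53 in control males, did not differ from Il1r1 or Cebpb beyond the spread between mice. Il6st followed at 21.9 ± 2.01 CPM per kb in LDP males and 21.2 ± 0.283 in control males, then Il1rap at 19.2 ± 1.53 and 17.5 ± 0.951 and Stat3 at 12.01 ± 0.350 and 11.96 ± 0.651 in the same groups. Cebpd, at 6.94 ± 2.04 CPM per kb in LDP males and 6.26 ± 1.398 in control males, overlapped in spread with Socs3 in controls, which stood at 3.11 ± 1.19 in LDP males and 5.14 ± 1.19 in control males. Il1rn was the lowest, at 1.32 ± 0.233 CPM per kb in LDP males and 1.17 ± 0.140 in control males.

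**Figure D1:**
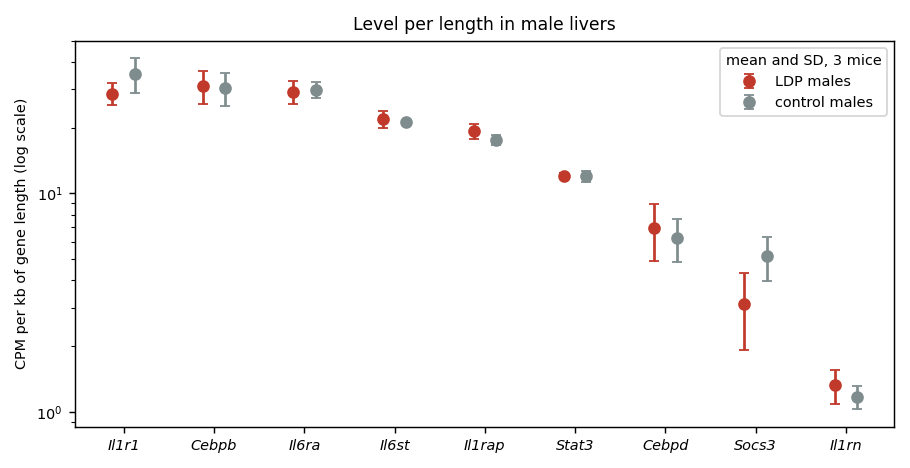
Level per length of the 9 genes in male livers, as CPM per kilobase on a log scale; points are means and bars SDs of 3 LDP males (red, left of each pair) and 3 control males (grey). Il1r1, Cebpb and Il6ra share the top of the range and Il1rn, at 1.32 and 1.17, the bottom.

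The ligands themselves were scarce. Il6 had 0 to 4 counts in each male library and 0 to 2 in each female library, and a count of 0 allows up to 3 counts, or 0.0403 to 0.0427 CPM in males and 0.105 to 0.167 CPM in females. Il1b had 38 to 75 counts in each male library and 17 to 71 in each female library. Il1a, at 2.82 to 4.38 CPM in males and 3.43 to 6.06 CPM in females, was the better covered of the IL-1 ligands. The decoy receptor Il1r2 had at most 10 counts in any library. These intervals and floors cover counting error only.

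**Figure D2:**
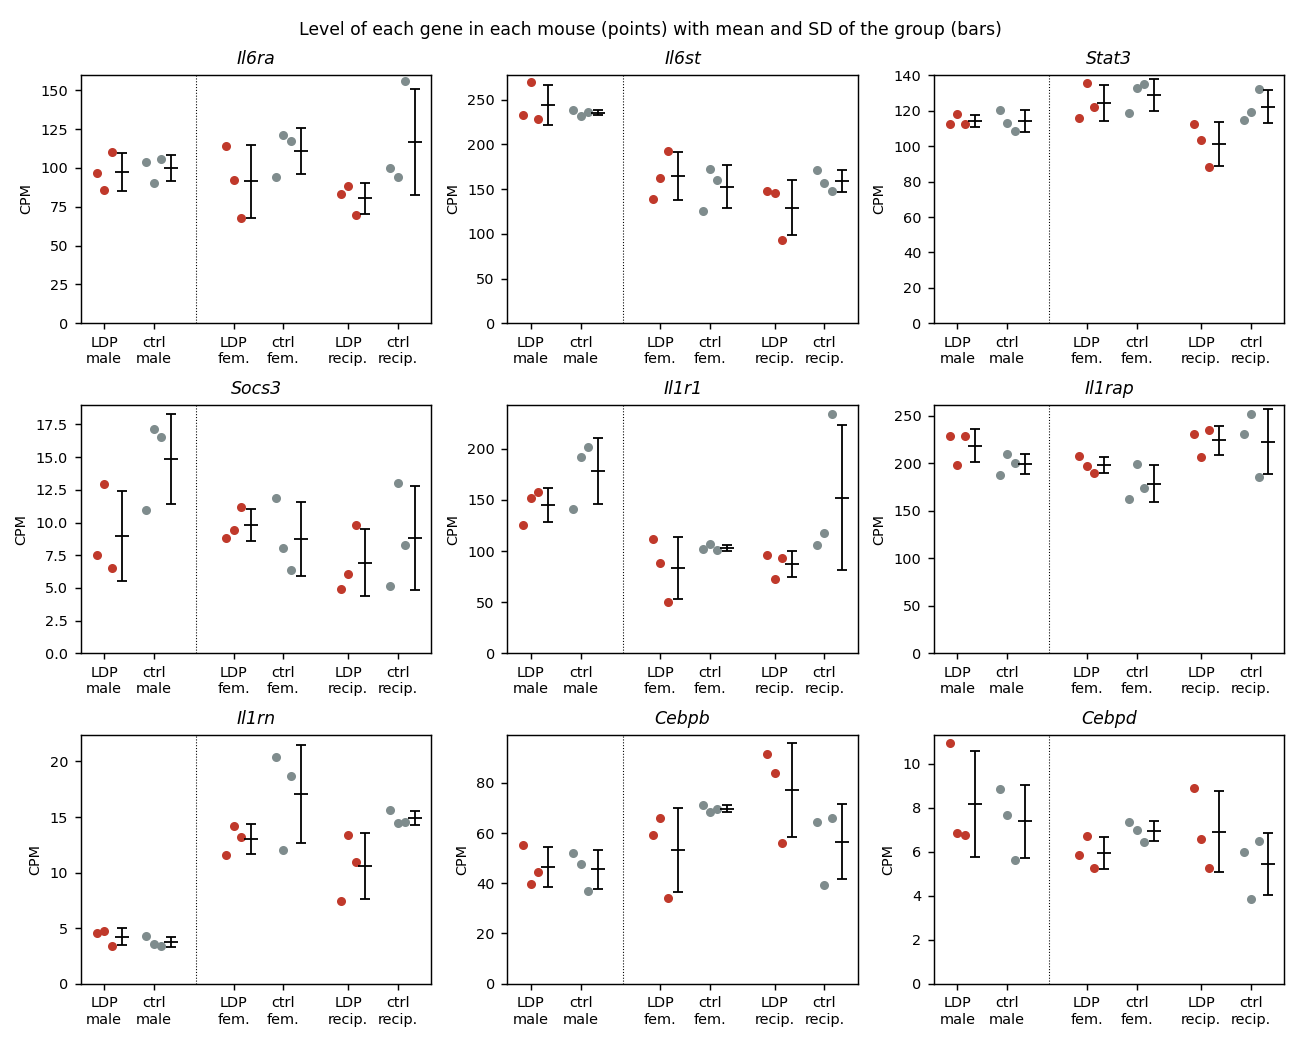
CPM of each of the 9 genes in every mouse (points; red for LDP mice or recipients of LDP microbiota, grey for their controls), with the mean and SD of the group beside them; the dotted line parts the males, counted in their own table, from the females. Control recipient 7 stands apart in Il1r1 at 234 CPM, and LDP female 54 is the lowest female in Il1r1 (50.6 CPM) and Cebpb (34.1 CPM).

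The comparison of recipients asks whether microbiota shaped by penicillin, without the drug, leave a mark on the liver of the new host. Of the 9 members, 6 were lower and 3 higher in LDP than in control recipients, with a median log2 change of -0.30, beside a median of -0.01 over all 12780 genes tested. None passed by edgeR (adjusted p = 0.846 to 0.995), where 0.00782% of all genes did. DESeq2 gave an adjusted p for Il1rap alone (0.982), since its filter on mean counts left the others without one. At an unadjusted p under 0.05 there were 3 members by each tool, all lower, where edgeR placed 5.11% of all genes, 2.25% as higher and 2.86% as lower. The share of all genes by DESeq2 is not given here. For 5 members the 2 groups of recipients did not overlap, all of them lower in LDP recipients, where 11.6% of all genes did not overlap, 6.1% being higher and 5.5% lower.

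Il6ra (chr3:89864059-89913196, minus strand, GRCm38), the ligand-binding chain for IL-6, stood at 83.6, 88.3 and 69.4 CPM in LDP recipients 2, 5 and 8, against 100.2, 94.3 and 156 CPM in control recipients 1, 3 and 7. Every LDP recipient lay below every control recipient, and control recipient 7 was far above the others. The log2 change was -0.54 with an approximate SE of 0.202 (unadjusted p = 0.0263 and adjusted p = 0.846 by edgeR). Without control recipient 7 the change was -0.27.

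Il1r1 (chr1:40225080-40317257, plus strand), the signalling receptor for IL-1, stood at 96.5, 73.1 and 93.6 CPM in LDP recipients 2, 5 and 8 and at 105, 117 and 234 CPM in control recipients 1, 3 and 7. The 2 groups did not overlap, and control recipient 7 again stood apart as the highest of the 12 females. The log2 change was -0.80 with an SE of 0.307 (unadjusted p = 0.0345 and adjusted p = 0.846 by edgeR), and -0.34 without control recipient 7.

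Il1rn (chr2:24336853-24351494, plus strand), the secreted antagonist of the same receptor, stood at 7.46, 13.3 and 10.95 CPM in LDP recipients 2, 5 and 8 and at 15.6, 14.4 and 14.6 CPM in control recipients 1, 3 and 7. The groups did not overlap and the control recipients lay close together, from 309 to 320 counts each. The log2 change was -0.50 with an SE of 0.200 (unadjusted p = 0.0350 and adjusted p = 0.846 by edgeR). Without LDP recipient 2, the lowest, it was -0.30.

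None of these 3 kept an unadjusted p under 0.05 by edgeR without control recipient 7, without LDP recipient 2 or without LDP recipient 8. Over all fits that left out 1 recipient, 0 to 2 of the 9 members had such a p. Without both control recipient 7 and LDP recipient 8, a choice made after their values were seen, Il6ra stood at a log2 change of -0.17, Il1r1 at -0.38 and Il1rn at -0.52.

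The signal transducers were lower by less. Il6st (chr13:112464070-112510086, plus strand), which encodes gp130, stood at 148, 146 and 93.6 CPM in LDP recipients 2, 5 and 8, against 172, 157 and 148 CPM in control recipients 1, 3 and 7. The groups were barely apart, at 147.8 CPM in LDP recipient 2 against 148.0 CPM in control recipient 7, and LDP recipient 8 was well below the rest (log2 change -0.30, SE 0.180, and -0.11 without LDP recipient 8). Stat3 (chr11:100885098-100939540, minus strand) stood at 113, 104 and 88.1 CPM in LDP recipients 2, 5 and 8 and at 115, 120 and 132 CPM in control recipients 1, 3 and 7, also without overlap (log2 change -0.27, SE 0.129, unadjusted p = 0.0650 by edgeR, and a change of -0.17 without LDP recipient 8).

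The C/EBP factors were higher in mean in LDP recipients. Cebpb (chr2:167688915-167690418, plus strand) averaged 77.2 ± 18.8 CPM in LDP recipients and 56.5 ± 15.03 CPM in control recipients, a log2 change of 0.45 (SE 0.247), and Cebpd (chr16:15887286-15891031, plus strand) averaged 6.91 ± 1.845 CPM in LDP recipients and 5.44 ± 1.41 CPM in control recipients, a log2 change of 0.34 (SE 0.260). The groups overlapped for both, and control recipient 3 was the lowest in both, at 39.2 CPM for Cebpb and 3.84 CPM for Cebpd. Without it the changes were 0.25 for Cebpb and 0.15 for Cebpd, and without LDP recipient 2, the highest, 0.31 and 0.12. Il1rap (chr16:26581704-26730117, plus strand), the accessory chain of the IL-1 receptor, hardly differed in mean, 224 ± 15.4 CPM in LDP recipients and 223 ± 33.9 CPM in control recipients, with a log2 change of 0.01 (SE 0.138). Socs3 (chr11:117966079-117970047, minus strand) spread widely in both groups, at 4.91, 6.07 and 9.79 CPM in LDP recipients 2, 5 and 8 and 5.16, 13.0 and 8.25 CPM in control recipients 1, 3 and 7, on 102 to 289 counts per library.

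Summed markers of the cells that could carry these transcripts overlapped between the groups of recipients. The Kupffer cell sum (7 markers in the female table) was 526 to 584 CPM in LDP recipients and 466 to 667 CPM in control recipients, and the sum of 6 markers of monocytes and recruited macrophages was 41.1 to 58.2 CPM and 46.2 to 62.9 CPM in the same order. The hepatocyte sum overlapped as well, at 147103 to 181797 CPM in LDP recipients and 115772 to 151518 CPM in control recipients. The neutrophil sum was low, at 1.38 to 2.49 CPM in LDP recipients and 0.979 to 2.03 CPM in control recipients. Of the marker lists, the 5 pancreatic acinar genes did not overlap, with sums of 41.6 to 55.8 CPM in LDP recipients and 19.7 to 34.7 CPM in control recipients, although 1 of the 5 was abundant enough to be tested. In each of these lists no marker was at 0 in all female libraries, and their part in the result was not tested.

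**Figure D3:**
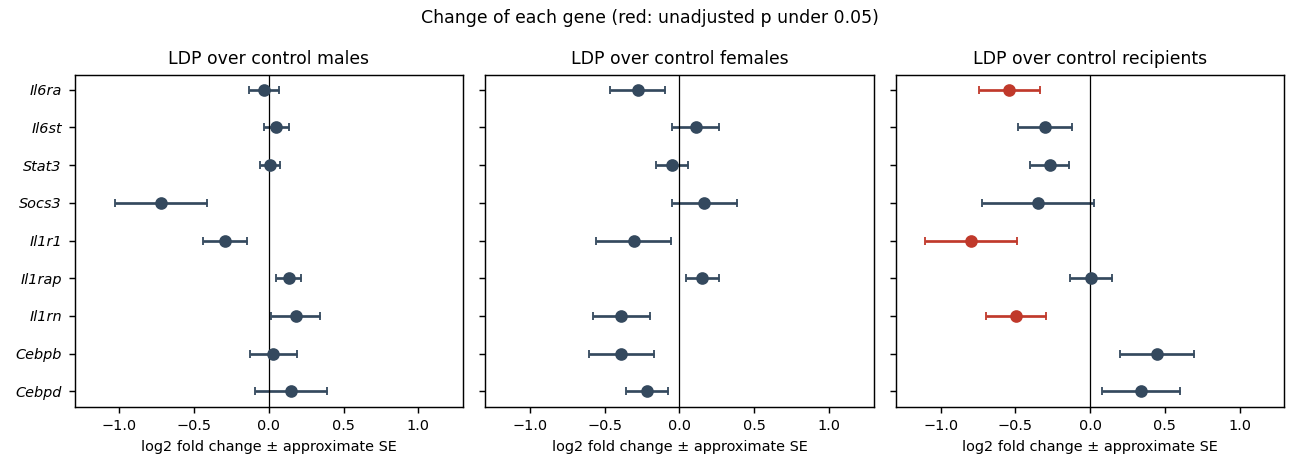
Log2 fold change of the 9 genes with its approximate SE in the 3 comparisons (LDP over control males, females and recipients); red marks an unadjusted p under 0.05 by edgeR. Such points appear in the recipients alone, for Il6ra (-0.54), Il1r1 (-0.80) and Il1rn (-0.50), and none of the 27 values passed after adjustment over all genes.

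The genes around the members in the recipients are given from lists of 97 genes in all. Of the 83 tested, 59 were lower and 24 higher in LDP recipients, with 0 past the adjusted threshold by edgeR and 7 lower and 1 higher at an unadjusted p under 0.05, where 2.86% of all genes were lower and 2.25% higher. Of the 27 acute phase and STAT3 target genes tested, 23 were lower, 6 of them at an unadjusted p under 0.05. The median log2 change over all 27 was -0.23, beside -0.01 over all genes.

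Lcn2, which encodes the iron-siderophore binding protein lipocalin 2, stood at 24.7, 20.2 and 12.3 CPM in LDP recipients 2, 5 and 8 and at 63.4, 67.5 and 39.5 CPM in control recipients 1, 3 and 7 (log2 change -1.58, SE 0.296, adjusted p = 0.846 by edgeR). Each LDP recipient was below each control recipient. Fgl1, a secreted liver protein of the fibrinogen family, stood at 757, 592 and 593 CPM in LDP recipients and 1174, 1516 and 792 CPM in control recipients, again without overlap (log2 change -0.84, SE 0.227). Orm3, an acid glycoprotein with close paralogs that can share reads, overlapped between the groups (log2 change -0.92, SE 0.364).

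Among receptors that share gp130 with IL-6, Lifr, the receptor for leukaemia inhibitory factor, stood at 671, 495 and 327 CPM in LDP recipients 2, 5 and 8 and at 327, 315 and 232 CPM in control recipients 1, 3 and 7. The groups were parted only by 327.2 CPM in LDP recipient 8 against 326.9 CPM in control recipient 1 (log2 change 0.77, SE 0.258, unadjusted p = 0.0172 and adjusted p = 0.846 by edgeR). Of the 17 JAK, STAT and inhibitor genes tested, 14 were lower, and the median log2 change over all 17 was -0.10. Of the 22 genes of IL-1 signalling to NF-kB, 14 were lower, and the median over all 22 was -0.07, with the ubiquitin ligase gene Peli1 at 19.2 ± 1.43 CPM in LDP recipients and 23.3 ± 0.198 CPM in control recipients (log2 change -0.29, SE 0.113). None of these passed.

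**Figure D4:**
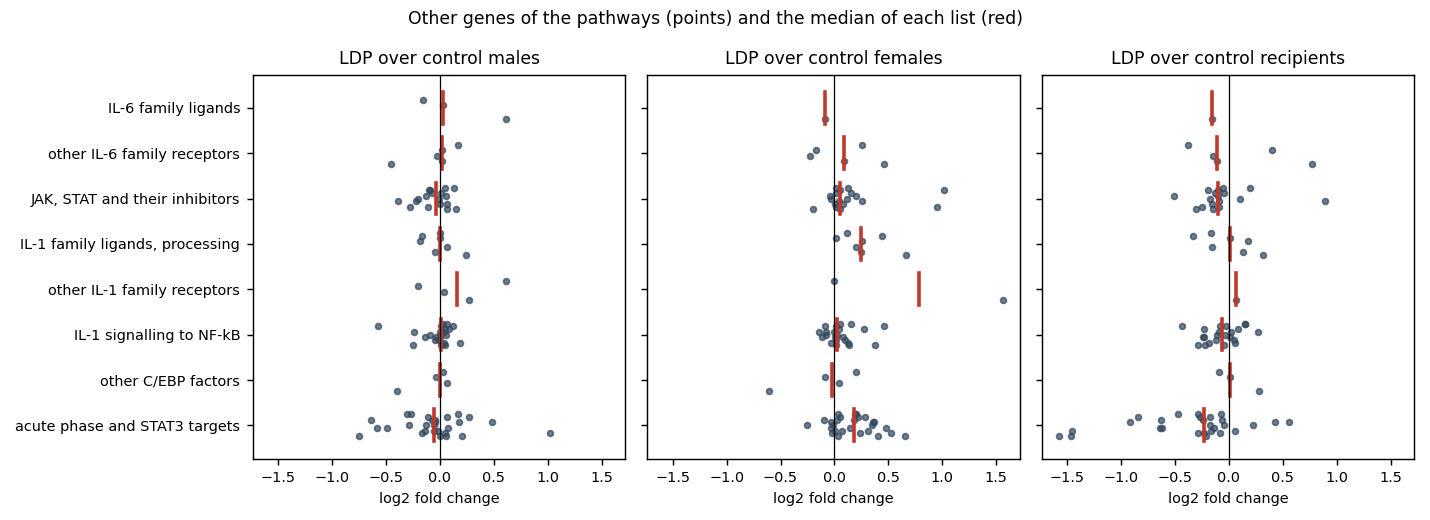
Log2 fold change of the other genes of the pathways by list (points) and the median of each list (red lines), in males, females and recipients. The acute phase and STAT3 target genes lie mostly to the left in recipients, with a median of -0.23, and mostly to the right in females, with a median of 0.18.

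The comparison of treated females asks what penicillin from birth does in the female liver. Of the 9 members, 6 were lower and 3 higher in LDP than in control females (median log2 change -0.22, beside 0.00 over all 12914 genes tested). None passed by edgeR (adjusted p = 0.999 for each), where 0% of all genes did, and none by DESeq2. No member had an unadjusted p under 0.05 by either tool, where edgeR placed 4.51% of all genes, 2.69% as higher and 1.82% as lower. For 1 member, Cebpb, the groups did not overlap and LDP females were lower. Of all genes 9.04% did not overlap, 4.97% being higher and 4.07% lower.

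Cebpb stood at 59.2, 66.1 and 34.1 CPM in LDP females 39, 52 and 54 and at 71.2, 68.3 and 69.6 CPM in control females 29, 30 and 32. The controls lay close together, and LDP female 54 was far below the other females. The log2 change was -0.39 (SE 0.217), and -0.15 without LDP female 54. The same mouse was lowest in Il1r1, which stood at 111, 88.1 and 50.6 CPM in LDP females and 102, 107 and 101 CPM in control females (log2 change -0.31, SE 0.250, and -0.05 without LDP female 54). It was also lowest in Il6ra, at 67.5 CPM, where LDP females averaged 91.3 ± 23.3 CPM and control females 111 ± 14.8 CPM, and the change of -0.28 (SE 0.186) was -0.11 without it. In Il6st it was the highest of the 6, at 193 CPM, with 165 ± 27.2 CPM in LDP females and 153 ± 24.2 CPM in control females.

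Il1rn was lower in mean in LDP females as well, at 11.6, 14.2 and 13.2 CPM in LDP females 39, 52 and 54 and 20.4, 12.1 and 18.7 CPM in control females 29, 30 and 32. Control female 30 fell among the LDP females, so the groups overlapped (log2 change -0.39, SE 0.191, unadjusted p = 0.0734 by edgeR), and the change was -0.59 without that mouse and -0.24 without control female 29. Socs3 stood at 8.80, 9.43 and 11.2 CPM in LDP females and 11.9, 8.08 and 6.35 CPM in control females, a log2 change of 0.17 (SE 0.218). Stat3 averaged 124 ± 10.3 CPM in LDP females and 129 ± 8.94 CPM in control females, Il1rap 198 ± 8.49 and 178 ± 19.2 CPM and Cebpd 5.94 ± 0.745 and 6.93 ± 0.457 CPM, each pair in the same order and each with overlap.

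In the lists, 64 of 86 genes tested were higher and 22 lower in LDP females, with 0 passing by edgeR and 4 at an unadjusted p under 0.05, all higher, where 2.69% of all genes were higher and 1.82% lower. Osmr, the oncostatin M receptor that also pairs with gp130, stood at 7.58, 8.45 and 11.9 CPM in LDP females and 5.57, 7.29 and 7.41 CPM in control females (log2 change 0.46, SE 0.197, adjusted p = 0.999 by edgeR). Il18r1, a receptor chain for interleukin 18 and 1 of these 4, passed the filter on low counts through LDP females. It was too scarce to be tested between the groups of recipients or between control recipients and control females. Its change therefore only describes these values. Il18r1 averaged 0.701 ± 0.262 CPM in LDP females and 0.242 ± 0.131 CPM in control females (log2 change 1.56, SE 0.480). Hamp, the iron hormone hepcidin and a STAT3 target, averaged 571 ± 158 and 363 ± 82.0 CPM, and Junb, a subunit of AP-1, 26.8 ± 2.79 and 22.1 ± 2.73 CPM in the same order. The sum of monocyte and recruited macrophage markers was 72.3 to 86.8 CPM in LDP females and 53.1 to 74.7 CPM in control females, and the Kupffer cell sum 612 to 779 CPM and 545 to 753 CPM. Mesothelial markers did not overlap, at 8.11 to 21.4 CPM in LDP females and 4.83 to 5.95 CPM in control females. No marker of these lists was at 0 in all female libraries, and their part in the values was not tested.

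In males, 6 members were higher and 3 lower in LDP than in control mice, with a median log2 change of 0.03, beside 0.00 over all 15438 genes tested. None passed by edgeR (adjusted p = 0.920 to 0.994), where 0.00648% of all genes did, and none by DESeq2 (lowest adjusted p = 0.326). No member had an unadjusted p under 0.05 by edgeR, where 5.23% of all genes had one (3.17% higher and 2.06% lower). Socs3 and Il1r1, both lower, had one by DESeq2, whose share of all genes is not given here. The groups overlapped for all 9 members, where 10.5% of all genes did not, 5.7% being higher and 4.81% lower.

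Socs3 stood at 7.53, 12.9 and 6.55 CPM in LDP males 8, 10 and 11 and at 10.9, 17.1 and 16.5 CPM in control males 5, 6 and 7. LDP male 10 lay above control male 5, and the remaining LDP males were below all controls. The log2 change was -0.72 with an SE of 0.309 (unadjusted p = 0.0583 by edgeR and 0.00357 by DESeq2, adjusted p = 0.920 and 0.326). Without LDP male 10 it was -1.08. Il1r1 stood at 126, 152 and 157 CPM in LDP males 8, 10 and 11 and at 141, 191 and 201 CPM in control males 5, 6 and 7, where control male 5 fell within the range of the LDP males (log2 change -0.30, SE 0.146, unadjusted p = 0.0781 by edgeR).

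The other members were close to even in males. Il6st averaged 244 ± 22.4 CPM in LDP males and 235 ± 3.15 CPM in control males (log2 change 0.05, SE 0.0817), and Il6ra 97.6 ± 12.2 and 99.9 ± 8.47 CPM in the same order (-0.03, SE 0.101). Stat3 was at 114 ± 3.34 CPM in LDP males and 114 ± 6.21 CPM in control males, a log2 change of 0.01 with the smallest SE of all members, 0.0669. Il1rap averaged 218 ± 17.4 and 199 ± 10.8 CPM (0.13, SE 0.0825), Il1rn 4.24 ± 0.747 and 3.74 ± 0.449 CPM (0.18, SE 0.163), Cebpb 46.5 ± 8.00 and 45.6 ± 7.74 CPM and Cebpd 8.19 ± 2.40 and 7.39 ± 1.65 CPM, LDP males given before control males each time.

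The lists were split evenly in males, with 45 of 91 genes tested higher and 46 lower, 0 passing by edgeR, and 4 higher and 5 lower at an unadjusted p under 0.05, where 3.17% of all genes were higher and 2.06% lower. Myd88, the adaptor of the IL-1 receptor, stood at 13.3, 15.2 and 13.1 CPM in LDP males and 17.5, 15.6 and 16.3 CPM in control males (log2 change -0.25, SE 0.0865, adjusted p = 0.920 by edgeR). Irak3, a brake on the same pathway, averaged 0.761 ± 0.0961 CPM in LDP males and 1.14 ± 0.210 CPM in control males, and Jak2 27.1 ± 0.488 and 24.5 ± 1.09 CPM in the same order. Cntfr, the receptor for ciliary neurotrophic factor, averaged 1.72 ± 0.0642 CPM in LDP males and 2.37 ± 0.334 CPM in control males, and Sigirr, an inhibitory receptor of the IL-1 family, 13.2 ± 1.851 and 10.9 ± 0.477 CPM. Hamp averaged 244 ± 28.8 CPM in LDP males and 174 ± 36.5 CPM in control males, Apcs, serum amyloid P, 59.6 ± 2.64 and 49.5 ± 5.55 CPM, and Orm2, another acid glycoprotein, 2.98 ± 0.411 and 5.03 ± 1.52 CPM in the same order. The Kupffer cell sum (8 markers in the male table) did not overlap, at 351 to 382 CPM in LDP males and 407 to 506 CPM in control males, nor did the sum of monocyte and recruited macrophage markers, at 44.1 to 44.9 CPM and 48.6 to 56.1 CPM, nor the hepatocyte sum, at 92273 to 102397 CPM and 77127 to 87563 CPM. No marker of these lists was at 0 in all male libraries, and their part in the values of the members was not tested.

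Whether the effects themselves differed between experiments was tested gene by gene. Males and females were counted separately, at different depth and on different gene annotations, so sex cannot be told apart from these. The LDP effect on Socs3 was 0.90 higher on the log2 scale in females than in males (SE 0.407, unadjusted p = 0.0491 by edgeR), and that on Il1rn 0.56 lower (-0.56, SE 0.265), but no member passed (adjusted p = 0.9999 for each), where 0% of all genes did and 2.71% had an unadjusted p under 0.05. The effect of LDP microbiota in recipients minus the effect of LDP in females was 0.85 for Cebpb (SE 0.370, unadjusted p = 0.0411 by edgeR) and 0.58 for Cebpd (SE 0.308). No member passed there either (adjusted p = 0.788 to 0.952), where 0% of all genes did and 5.94% had an unadjusted p under 0.05.

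Recipients and C57BL6J females differ in strain, colonisation and experiment at once, which cannot be told apart, so their comparison only places the levels of the members. Between control recipients and control females 1086 of 12871 genes passed by edgeR (8.44%), but none of the 9 members did (lowest adjusted p = 0.235, for Il1rap). Between LDP recipients and LDP females 1940 of 12997 genes passed (14.9%), again with none of the members (lowest adjusted p = 0.144, for Stat3). By DESeq2 none of the members passed in either. At an unadjusted p under 0.05 edgeR placed 0 members in the first, against 22% of all genes (10.1% higher, 11.9% lower). In the second it placed 1, Stat3, lower, against 31.6% (14.4% higher, 17.2% lower). DESeq2 placed Il1r1 (log2 change 0.56) and Il1rap (0.31) in the first and Stat3 (-0.29) and Cebpb (0.54) in the second. Its share of all genes is not given here. Cebpb did not overlap in the first, lower in control recipients, where 27.9% of all genes did not (14% higher, 13.9% lower). Stat3 did not overlap in the second, lower in LDP recipients, where 38.5% did not (19.3% higher, 19.3% lower). Socs3, at 6.93 ± 2.55 CPM in LDP recipients and 9.79 ± 1.22 CPM in LDP females, passed without LDP recipient 8 (log2 change -0.83, adjusted p = 0.0216 by edgeR), and was at -0.50 (SE 0.236, adjusted p = 0.181) with all 6 mice.

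Of the genes in the lists, 7 of 84 tested passed by edgeR between control recipients and control females, 5 higher and 2 lower, and 12 of 86 between LDP recipients and LDP females, 2 higher and 10 lower. Both counts were close to the shares over all genes, 8.44% and 14.9%. Each includes, as lower, Cebpe, which entered the tests through the C57BL6J females. In control recipients 5 of 27 acute phase and STAT3 targets rose against control females by edgeR and none fell. Lcn2 stood at 56.8 ± 15.1 CPM in control recipients and 8.30 ± 2.03 CPM in control females (log2 change 2.77, adjusted p = 0.000708), Orm3 at 17.0 ± 7.28 and 2.16 ± 0.520 CPM, Serpina3n, a protease inhibitor, at 1149 ± 58.7 and 729.9 ± 28.997 CPM, and Apcs at 326 ± 91.8 and 125 ± 27.9 CPM in the same order.

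At an unadjusted p under 0.05 by edgeR, 16 of 84 list genes were higher and 8 lower in control recipients than in control females. These counts include the genes that passed, and of all genes 10.1% were higher and 11.9% lower. In the lists where no gene passed, the higher ones were Sigirr, Il1b and Nfkbiz (log2 changes of 0.29, 0.89 and 0.49). The lower ones in those lists were Nlrp3, Il18, Nfkb2 and Irak4 (-0.80, -0.36, -0.35 and -0.30). The adjusted p of these named genes was 0.0917 to 0.225 by edgeR.

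In the same comparison of LDP mice, 5 of 27 targets passed, 2 higher and 3 lower, where 14.9% of all genes passed. Lbp, which carries bacterial lipopolysaccharide, rose to 248 ± 19.6 CPM in LDP recipients, against 173 ± 15.3 CPM in LDP females, and Serpina3m, a protease inhibitor, to 917 ± 75.5 CPM, against 529.6 ± 99.1 CPM. Saa2, a serum amyloid A whose paralogs can share reads, fell to 9.52 ± 1.467 CPM in LDP recipients, against 15.1 ± 1.91 CPM in LDP females, and Junb fell to 13.0 ± 3.28 CPM in LDP recipients, against 26.8 ± 2.79 CPM in LDP females. Osmr fell to 4.24 ± 0.152 CPM in LDP recipients, against 9.32 ± 2.31 CPM in LDP females (adjusted p = 0.00520), and so did the inflammasome genes Casp1 (3.38 ± 0.354 and 6.01 ± 0.996 CPM) and Pycard (0.692 ± 0.261 and 1.90 ± 0.271 CPM), LDP recipients before LDP females. Pias3, an inhibitor of STAT3, fell as well (6.64 ± 0.485 and 9.86 ± 1.23 CPM), and so did Tnfaip3, a brake on NF-kB (3.58 ± 1.002 and 6.31 ± 1.15 CPM). Sigirr (log2 change 0.36) and Il18r1 (-1.12) did not pass, and Il18r1 entered the test through LDP females. The C/EBP factor gene Cebpe had 0.0455, 0.108 and 0 CPM in LDP recipients 2, 5 and 8, against 2.25 ± 0.547 CPM in LDP females, and 0, 0.0451 and 0 CPM in control recipients 1, 3 and 7, against 2.39 ± 0.288 CPM in control females. Cebpe entered both tests through the C57BL6J females and was too scarce to be tested between the groups of recipients. Its changes therefore only describe these values. Markers moved with this contrast too: the sum for monocytes and recruited macrophages was 41.1 to 58.2 CPM in LDP recipients and 72.3 to 86.8 CPM in LDP females, and that for Kupffer cells 526 to 584 CPM and 612 to 779 CPM. Sums of mesothelial markers (1.898 to 4.19 CPM in LDP recipients and 8.11 to 21.4 CPM in LDP females) and of B and plasma cell markers (1.91 to 2.87 CPM and 3.24 to 4.84 CPM) did not overlap either. The sum of pancreatic acinar markers was higher in recipients, at 41.6 to 55.8 CPM in LDP recipients and 9.72 to 18.6 CPM in LDP females, and at 19.7 to 34.7 CPM in control recipients and 12.4 to 13.4 CPM in control females. Only 1 of the 5 acinar genes was abundant enough to be tested in either comparison. The part of the markers in these values was not tested.

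The spread between mice of a group differed greatly among members. The coefficient of variation within a group had a median over the 6 groups of 7.26% for Stat3 and 7.42% for Il1rap, and of 34.5% for Socs3, for which it ranged from 12.4 to 45.1%. To find genes that varied with a member from mouse to mouse, log2 CPM was centred on the mean of each group and compared over the 18 libraries among 10387 genes, as a description with no test; the points share library and depth. Deviations of Cebpb and Cebpd were the most alike of any pair of members (Pearson r = 0.84), followed by Il6ra and Il1r1 (0.71), and those of Socs3 and Cebpb the most opposed (-0.65). The genes most like Socs3 were Xbp1 (0.90), Eif2ak3 (0.88) and Fam189b (0.87). Those most like Il1rn were Cd86 (0.94), Tbxas1 (0.87) and Fermt3 (0.84), and those most like Il1r1 were Map3k5 (0.88), Slc25a16 (0.88) and Syce2 (0.88). For the other members the nearest gene was Rhobtb1 for Il6ra (0.92), Ncoa2 for Il6st (0.95), Slc28a2 for Stat3 (0.88), Cadps2 for Il1rap (0.90), Fam107b for Cebpb (0.91) and Trp53inp1 for Cebpd (0.85). These genes were picked as the highest of 10387, which by itself gives high r, and no r was tested against that.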

How the data were processed

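Both tables hold raw gene counts as deposited, with a column for each mouse, in one of versioned Ensembl IDs for males and one of symbols for females. Per the submitters' processing notes, the tools were DESeq, featureCounts 1.4.3-p1, HTSeq 0.5.3p9 and STAR 2.3.0e and the build mm10; their roles, and the handling of reads that match several genes, are not given in the sources used here. The authors' male table also gives a gene length in bases, used here for levels per kilobase. Symbols for 37607 of the 38924 male IDs (96.6%) came from GENCODE M21; coordinates are from it too (GRCm38, which mm10 also names) and sequences from RefSeq GRCm38.p6. No columns were left unmatched. Among genes well counted on average (11608 in males and 9530 in females), at most 0.776% had equal counts in any pair of libraries.

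Each comparison used its own 6 libraries: filterByExpr (minimum count 10, minimum total 15), TMM, then edgeR 4.0.16 (R 4.3.3) with a robust quasi-likelihood fit. P-values were adjusted by Benjamini and Hochberg over all genes tested, with 0.05 as threshold. SEs are approximate, the log2 change over the root of F. Differences of effects had 1 coefficient per group over 12 libraries; for females against males this used the 20058 names in both tables. CPM use TMM factors over a whole table and log2 CPM a prior count of 2. The fits were also run on simulated counts whose spread followed mean level alone, without the outlying mice of these data. That run checks the code only, and its outcome is not given here.

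The members and lists were chosen with earlier results of these data known. All members are named; of each list, up to 4 passing genes or, with none passing, up to 3 at an unadjusted p under 0.05. 1 gene that this rule names is not reported here. Alternatives were DESeq2 1.42.0, other scalings, filters and spread estimates, and leaving out each mouse.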

Additional observations from a re-analysis of the deposited data

How the results depend on the processing

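No paired analysis was possible because the groups compared share no replicate numbers. No member passed by edgeR or DESeq2 under any alternative in any comparison, where an adjusted p was given, except Socs3 between LDP recipients and LDP females without LDP recipient 8. That left the count of members past the threshold at 0 to 1 there. Counts of all genes past the threshold were 42 in males, 15 in females, 28 in recipients, 1 for females minus males and 12 for recipients minus females by DESeq2; 2, 1 and 2 in males, females and recipients without a filter on low counts; and 0 in males and 3 in recipients with 12 libraries sharing the spread. Leaving out 1 mouse gave 0 to 66 genes in males, 0 to 1 in females, 0 to 4 in recipients, 559 to 1669 between control recipients and control females, 901 to 1636 between LDP recipients and LDP females, 0 to 1 for females minus males and 0 to 3 for recipients minus females. The highest or lowest of these came without LDP male 11 (66), control recipient 7 (1669), control female 30 (559) and LDP female 52 (901). The causes were not tested.

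Small changes turned in sign on leaving out 1 mouse. In males the ranges of the log2 change were -0.13 to 0.047 for Il6ra, -0.034 to 0.095 for Il6st, -0.031 to 0.046 for Stat3, -0.11 to 0.13 for Cebpb and -0.12 to 0.30 for Cebpd. In females they were -0.023 to 0.22 for Il6st, -0.12 to 0.00026 for Stat3 and -0.023 to 0.44 for Socs3, and in recipients -0.69 to 0.050 for Socs3 and -0.10 to 0.11 for Il1rap; without both control recipient 7 and LDP recipient 8 they were -0.73 and -0.13. Between control recipients and control females they were -0.20 to 0.20 for Il6ra, -0.072 to 0.14 for Il6st and -0.38 to 0.29 for Socs3, which was -2.58e-05 with upper quartile factors. Between LDP recipients and LDP females they were -0.18 to 0.32 for Il1r1 and -0.0047 to 0.39 for Cebpd. For females minus males they were -0.072 to 0.18 for Il6st, -0.12 to 0.0068 for Stat3, -0.26 to 0.25 for Il1r1 and -0.050 to 0.11 for Il1rap, and for recipients minus females -0.42 to 0.020 for Il6ra and -0.30 to 0.11 for Il1rn. The 5 members without overlap in recipients were the same with total counts, RLE and upper quartile factors, scalings added after the data were seen; with total counts 9.60% of all genes were lower without overlap and the median gene shifted by -0.07. Depth limits Socs3, Cebpd and Il1rn most, with 85 to 406 counts per female library.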
